A study of Mus musculus with 6 samples.

Results

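Nucleolar ribosome biogenesis genes encode the proteins that transcribe ribosomal DNA and process and assemble the ribosome inside the nucleolus. The set held 44 of the 40166 mouse genes counted in YUMM3.3 melanoma tumors, chosen by name: 6 genes of the RNA polymerase I machinery, 6 abundant nucleolar proteins, 4 proteins of box C/D and 4 of box H/ACA ribonucleoproteins, 13 factors of the small (40S) and 11 of the large (60S) subunit. YUMM3.3, a BRAF-mutant mouse melanoma line, was grown under the skin of C57BL/6 mice that were 8 to 10 weeks old at inoculation, and all tumors came from this 1 line. Bulk RNA from 3 tumors of mice gavaged with water (vehicle, replicates 7, 8 and 9) was compared with that from 3 tumors of mice gavaged with rigosertib at 300 mg/kg (RGS, replicates 10, 11 and 12). Dosing was on 5 days a week and tumors were taken after 17 days. The study describes RGS as a small molecule that mimics RAS, and adds that several mechanisms have been reported for it. It also names a dispute over whether RGS itself destabilizes microtubules. The comparison asks which transcripts differed between treated and untreated tumors.

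The 3 vehicle libraries held between 22793087 and 32555494 counts and the 3 RGS libraries between 13837932 and 21617368, so sequencing depth cannot be told apart from treatment. A count of 3 in a library, taken as the floor of detection, equalled between 0.0922 and 0.217 CPM (counts scaled to a library of 1000000), and such floors cover counting error only. Mitochondrial transcripts took 2.13 to 3.20% of counts with vehicle and 5.60 to 8.22% with RGS, and cytosolic ribosomal protein genes took 5.67 to 10.2% and 3.16 to 3.69%. The labelled tissue was melanoma, but of 7 melanocyte lineage markers *Mlana*, *Tyr*, *Tyrp1* and *Dct* had at most 3 counts in every tumor. *Sox10* was at 0 in 5 of 6 tumors, and *Pmel* had at most 25 counts. *Mitf* was present in every tumor, with 74 to 261 counts, and did not pass the test (log2 fold change 0.45). Summed over the 7 markers, vehicle tumors had 4.94 to 7.68 CPM and RGS tumors 4.53 to 10.5 CPM, most of it from *Mitf*. Leukocyte markers summed to at most 0.602 CPM with vehicle and 0.734 CPM with RGS, and 8 of 11, *Ptprc* among them, had at most 3 counts everywhere. The sum of 6 fibroblast markers was 215 to 283 CPM with vehicle and 153 to 165 CPM with RGS, most of it *Pdgfra*. *Pdgfra*, *Pdgfrb* and *Col3a1* fell, *Dcn* rose from 1.14 ± 0.495 to 10.7 ± 4.61 CPM (SD, n = 3), *Col1a1* did not pass the test (17.0 ± 3.17 and 18.1 ± 4.34 CPM) and *Lum* was at 0 in every tumor. The 5 endothelial markers summed to 2.49 to 4.10 and 6.33 to 13.8 CPM, much of the difference from *Cdh5*, which rose from 0.555 ± 0.266 to 6.20 ± 3.78 CPM (SD, n = 3). *Vwf*, *Pecam1* and *Tek* did not pass the test (log2 fold changes of 0.33, 1.88 and -1.88) and *Kdr* had at most 6 counts. The 10 markers of cell division summed to 861 to 888 CPM with vehicle and 411 to 485 CPM with RGS. The part of these differences in the results that follow was not tested, and in bulk RNA fewer cells of a type cannot be told apart from less RNA per cell. Each number marks 1 tumor, and no source used here says whether tumors of a group shared a cage or a day, so p-values measure the spread between these tumors.

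Ribosome assembly begins when RNA polymerase I, brought to the ribosomal DNA by UBTF and RRN3, transcribes a long precursor of the small and large subunit rRNAs. Box C/D and box H/ACA ribonucleoproteins, led by the methyltransferase fibrillarin and the pseudouridine synthase dyskerin, modify this precursor. The small subunit processome and a series of pre-60S particles then fold and cleave it while ribosomal proteins join, and proliferating tumor cells carry large nucleoli because they make many ribosomes.

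Promoters were read for the members because several of these genes carry the E-box CACGTG, the site bound by MYC and its relatives, near their start. Windows of 250 bases before to 50 bases after the start were taken from RefSeq (build GRCm38.p6), which had 47 windows for 39 of the 44 members. CACGTG, which reads the same on both strands, was present for 10 of the 39 (25.6%), against 2187 of all 27025 genes with such a window (8.09%) and 1225 of 10708 tested genes (11.4%). The 10 genes were *Ltv1*, *Mybbp1a*, *Nop2*, *Pes1*, *Rrn3*, *Tsr1*, *Utp18*, *Utp20*, *Utp4* and *Wdr43*. CCGGAAG on either strand, a core of ETS factor sites that does not overlap the E-box letters, was present for 16 of the 39 (41.0%) against 9.93% of all genes and 19.1% of tested genes. A match is a description of letters and not evidence of binding. Windows are printed for 5 members: *Utp4*, which rose with RGS, *Wdr43*, which fell, and *Wdr75*, which did not pass the test, as the 3 encode partners in 1 complex, and *Tsr1* and *Gnl3*, which had large decreases. Capitals mark the E-box and the ETS core on either strand, and each line is read 5′ to 3′ along the gene.
Utp4 (chr8:106893390-106893689, plus strand): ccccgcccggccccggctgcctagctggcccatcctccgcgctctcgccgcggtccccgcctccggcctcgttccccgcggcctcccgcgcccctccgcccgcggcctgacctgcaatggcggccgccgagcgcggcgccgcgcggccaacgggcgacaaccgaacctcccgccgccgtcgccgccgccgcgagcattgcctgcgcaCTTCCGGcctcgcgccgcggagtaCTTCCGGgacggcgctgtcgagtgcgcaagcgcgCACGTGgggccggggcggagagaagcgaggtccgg
Wdr43 (chr17:71615965-71616264, plus strand): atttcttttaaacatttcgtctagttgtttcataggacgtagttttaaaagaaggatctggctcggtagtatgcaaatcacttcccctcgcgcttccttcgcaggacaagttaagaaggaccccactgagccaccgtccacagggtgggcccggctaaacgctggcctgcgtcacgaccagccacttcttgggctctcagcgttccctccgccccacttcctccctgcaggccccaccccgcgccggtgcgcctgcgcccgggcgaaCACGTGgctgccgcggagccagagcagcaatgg
Wdr75 (chr1:45794916-45795215, plus strand): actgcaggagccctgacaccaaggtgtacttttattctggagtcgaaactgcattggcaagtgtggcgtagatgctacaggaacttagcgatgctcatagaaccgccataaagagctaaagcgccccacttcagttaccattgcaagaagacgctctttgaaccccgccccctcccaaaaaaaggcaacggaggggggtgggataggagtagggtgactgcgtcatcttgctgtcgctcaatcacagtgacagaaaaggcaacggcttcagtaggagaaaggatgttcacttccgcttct
Tsr1 (chr11:74897830-74898129, plus strand): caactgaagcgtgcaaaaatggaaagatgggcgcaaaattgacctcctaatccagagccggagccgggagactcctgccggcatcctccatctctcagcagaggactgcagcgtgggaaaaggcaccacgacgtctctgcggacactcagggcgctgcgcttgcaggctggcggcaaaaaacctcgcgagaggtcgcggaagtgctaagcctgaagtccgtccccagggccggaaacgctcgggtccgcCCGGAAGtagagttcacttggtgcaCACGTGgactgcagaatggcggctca
Gnl3 (chr14:31019082-31019381, minus strand): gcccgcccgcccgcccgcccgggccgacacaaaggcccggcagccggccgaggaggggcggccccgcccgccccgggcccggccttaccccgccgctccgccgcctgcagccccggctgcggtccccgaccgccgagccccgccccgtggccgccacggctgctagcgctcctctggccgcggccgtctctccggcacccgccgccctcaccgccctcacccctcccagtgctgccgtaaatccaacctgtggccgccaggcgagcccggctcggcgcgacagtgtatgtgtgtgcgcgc

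The E-box began 15 bases after the start of *Utp4* and 17 bases after the start of *Wdr43*, at nearly the same place in the window. It began 24 bases after the start of *Tsr1*, and *Gnl3* and *Wdr75* had none. *Utp4*, *Wdr43* and *Tsr1* thus shared the letters while their transcripts went in both directions. Over the 10 members with CACGTG the median log2 fold change (RGS over vehicle) was -0.30, with 3 genes lower and 1 higher, and over the 29 without it the median was -0.23, with 5 lower and 4 higher. For CCGGAAG the medians were -0.24 with and -0.24 without the letters. No difference between these groups was tested.

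The nucleolar genes went in both directions with RGS. Of the 44 genes, all of which passed the filter on low counts, 9 fell and 5 rose by edgeR's quasi-likelihood test at a Benjamini-Hochberg adjusted p under 0.05. The 9 were *Npm1*, *Gnl3*, *Rrp9*, *Dkc1*, *Utp18*, *Wdr43*, *Tsr1*, *Wdr12* and *Brix1*, and the 5 were *Polr1a*, *Gar1*, *Utp4*, *Noc4l* and *Bysl*. These 14 genes made up 31.8% of the members, against 32.8% of all 15355 genes tested. Decreases were 20.5% of members against 16.5% of all genes, and increases 11.4% against 16.3%. The share of members called was thus near that of all genes. The groups did not overlap for 20 members (45.5%, against 45.8% of all genes), of which 12 were lower with RGS (24.0% of all genes) and 8 higher (21.7% of all genes).

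The differences were small. The median log2 fold change (RGS over vehicle, printed for single genes with ± its standard error) was -0.20 over the members and -0.05 over all tested genes, and it ranged from -1.42 for *Gnl3* to 0.84 for *Gar1*. The median size without regard to sign was 0.34 for members and 0.63 for all genes. No member had fewer than 145 counts in a tumor, while genes were tested from a median count of 5 in a group. These medians were not matched for counts, so they do not show that the members respond less than genes of like level. On the log2 scale 3 members (*Gnl3*, *Wdr12* and *Tsr1*) changed by 1 or more. For the 30 members that did not pass the test, 95% intervals by a normal approximation, which are narrower than those from the test's own distribution, had outer bounds of -0.97 and 0.89. The plot of single tumors and the plot of fold changes show the same 44 genes in the same order. Without vehicle replicate 8, 5 members were lower and 2 higher (1717 and 1776 of all genes, against 2533 and 2503 with all tumors). Without vehicle replicate 9, 6 were lower and 1 higher (2012 and 1995 of all genes), and without RGS replicate 12 likewise 6 and 1 (2183 and 1950). With library size only, in place of TMM factors, 14 members were lower and 2 higher (3152 and 1870 of all genes). Limma voom gave 14 and 6 (3408 and 3407 of all genes). A gene length offset, added after the data were seen, gave 6 lower and 7 higher (2319 and 3139 of all genes). The calls of *Npm1*, *Gnl3*, *Dkc1*, *Utp4*, *Tsr1* and *Wdr12* passed under the 19 alternatives that kept the threshold on adjusted p alone, and those of *Gnl3*, *Wdr12* and *Tsr1* also with an added threshold of 1 on the log2 fold change, which the other 11 called members missed.

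**Figure D1:**
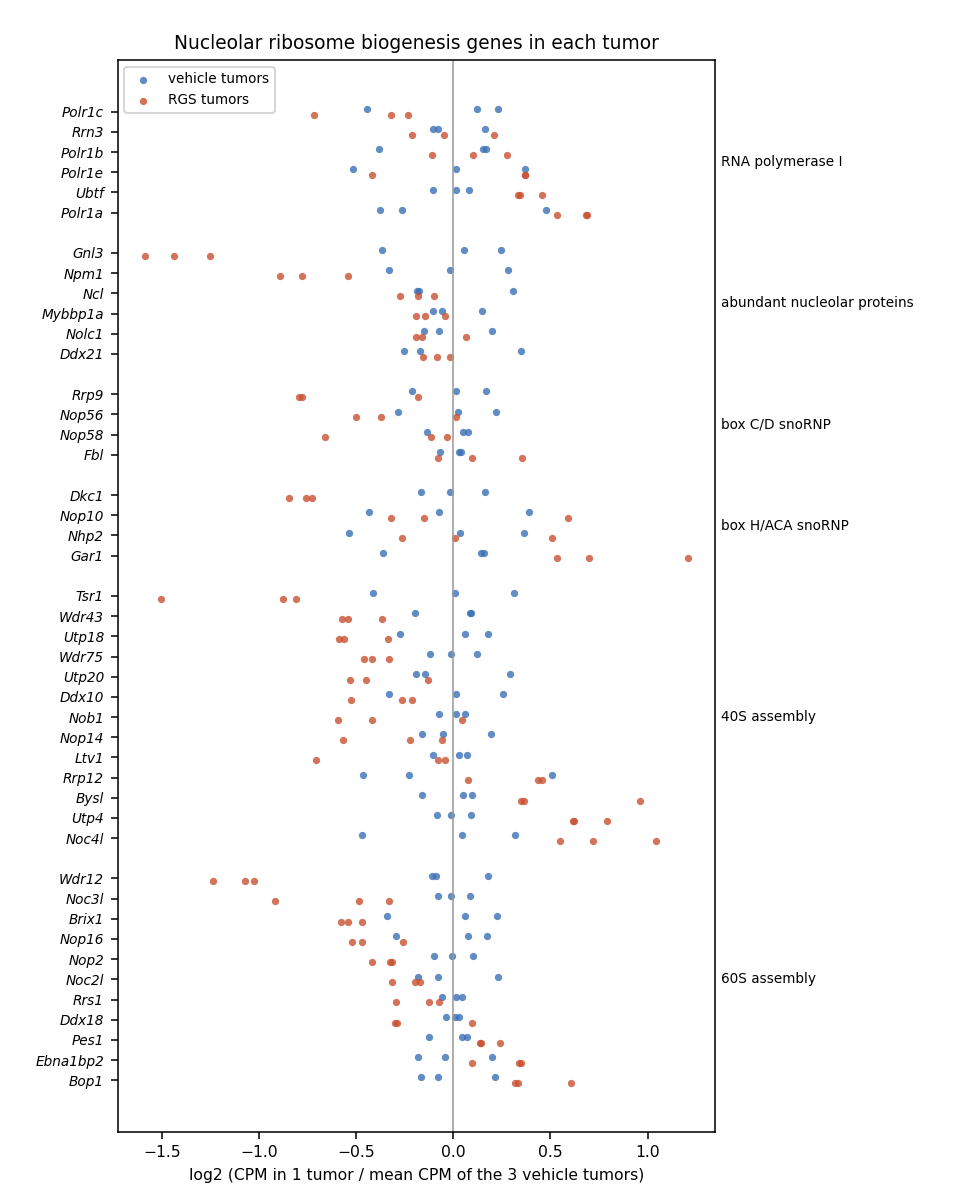
Each point is 1 tumor, placed on the x axis by the log2 ratio of its CPM to the mean CPM of the 3 vehicle tumors, with vehicle in blue, RGS in red and the 44 genes grouped by role. The red points of *Gnl3*, *Npm1*, *Dkc1*, *Tsr1* and *Wdr12* lie to the left of all blue points and those of *Gar1*, *Utp4* and *Noc4l* to the right, while for 24 genes the colors overlap.

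**Figure D2:**
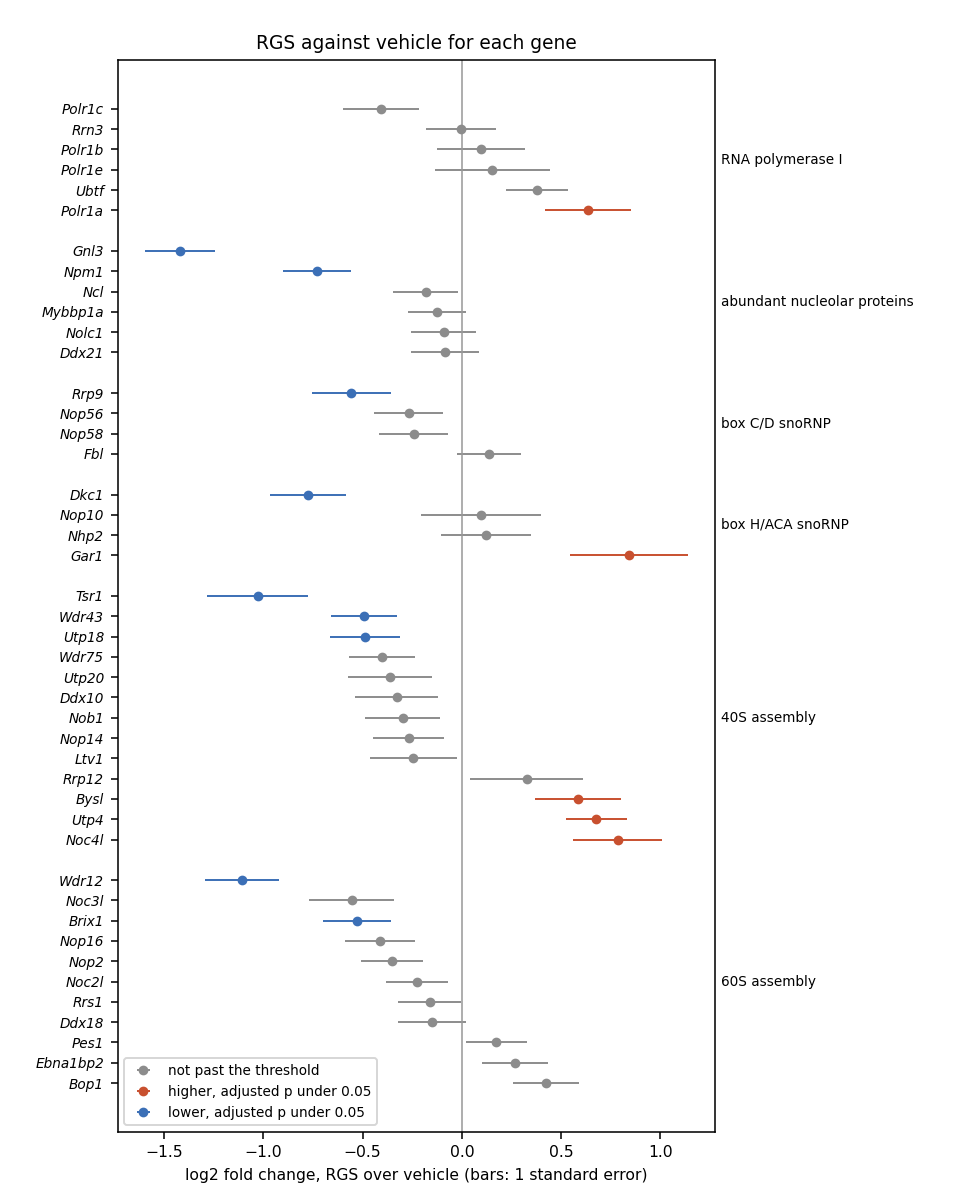
Points give the log2 fold change of RGS over vehicle from edgeR for each of the 44 genes, and bars give 1 standard error on each side. Blue marks the 9 genes that fell, red the 5 that rose and gray the 30 that did not pass an adjusted p of 0.05.

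For the RNA polymerase I genes the median log2 fold change was 0.12. By edgeR 1 of 6 was higher and 0 lower (16.7% and 0%, against 16.3% and 16.5% of all genes). *Polr1c* was lower at an unadjusted p under 0.05, and passed with limma voom and with library size only but not with DESeq2. *Polr1a* (chr6:71909053-71984935, plus strand), the largest subunit of the enzyme, stood at 49.1, 27.2 and 29.4 CPM in vehicle replicates 7, 8 and 9 and 50.99, 56.8 and 56.5 CPM in RGS replicates 10, 11 and 12. Its 3 RGS values lay between 50.99 and 56.8 CPM and above the vehicle values, of which replicate 7 was well above the others. *Polr1a* rose (log2 fold change 0.64 ± 0.22, adjusted p = 0.0300). The adjusted p was 0.147 without vehicle replicate 8, 0.0932 without vehicle replicate 9 and 0.0528, 0.0827 and 0.0829 without RGS replicate 10, 11 or 12. With library size only, in place of TMM factors, it was 0.103. *Ubtf*, the factor that keeps ribosomal DNA open and bent for transcription, was at 81.4, 77.8 and 71.5 CPM with vehicle and 96.9, 106 and 97.7 CPM with RGS. The groups did not overlap, yet the difference did not pass the test (log2 fold change 0.38 ± 0.16, adjusted p = 0.0692). It passed with DESeq2 (adjusted p = 0.0330), limma voom (0.0151) and a gene length offset (0.0154; a fit that takes out each library's trend with gene length, added after the data were seen), and without vehicle replicate 7 (0.0356). *Polr1c*, a subunit shared with RNA polymerase III, was at 72.5, 107 and 116 CPM with vehicle and 60.03, 84.003 and 78.9 CPM with RGS. Here the groups overlapped (log2 fold change -0.41 ± 0.19, adjusted p = 0.113), through vehicle replicate 7, without which the adjusted p was 0.00596. *Rrn3*, which ties the polymerase to the promoter, was at 57.8 ± 6.11 CPM with vehicle against 57.6 ± 8.63 CPM with RGS, a log2 fold change of -0.01. *Polr1b*, the second largest subunit, and *Polr1e* had log2 fold changes of 0.10 and 0.15, and neither passed.

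The abundant nucleolar proteins divided into 2 genes that fell (33.3%, against 16.5% of all genes) and 4 that did not pass the test. *Npm1* (chr11:33152287-33163206, minus strand) encodes nucleophosmin, a shell protein of the nucleolus, and was the most highly expressed member per length. It stood at 1107, 1378 and 1690.3 CPM in vehicle replicates 7, 8 and 9 and 749.6, 810.4 and 958 CPM in RGS replicates 10, 11 and 12. The RGS tumors all lay below the lowest vehicle tumor, and *Npm1* fell (log2 fold change -0.73 ± 0.17, adjusted p = 0.00276). *Gnl3* (chr14:31012433-31019152, minus strand) encodes nucleostemin, a GTP-binding nucleolar protein of dividing cells, and fell the most of the 44 genes. It stood at 163, 219 and 249 CPM in vehicle replicates 7, 8 and 9 and 69.9, 88.1 and 77.6 CPM in RGS replicates 10, 11 and 12, a fold of 0.374 (log2 fold change -1.42 ± 0.18, adjusted p = 6.66e-06). The lowest vehicle value, 163 CPM, was well above the highest RGS value, 88.1 CPM. *Ncl*, which encodes nucleolin, had 717, 512 and 509 CPM with vehicle and 479, 511 and 542 CPM with RGS. Vehicle replicates 8 and 9 sat within the RGS range, and the difference did not pass (log2 fold change -0.18 ± 0.16, adjusted p = 0.420). *Ddx21*, an RNA helicase of the nucleolus, was at 211, 147 and 139 CPM with vehicle and 164, 156 and 149 CPM with RGS, with the highest value in vehicle replicate 7 (log2 fold change -0.08 ± 0.17, adjusted p = 0.745). *Nolc1*, a chaperone of small nucleolar ribonucleoproteins, and *Mybbp1a*, which binds the polymerase I machinery, had log2 fold changes of -0.09 and -0.13 and did not pass.

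Among the box C/D proteins, which guide methylation of rRNA, 1 of 4 passed. *Fbl*, which encodes the methyltransferase fibrillarin, had 98.3, 105 and 106 CPM with vehicle and 97.6, 110.4 and 132 CPM with RGS. The groups overlapped (log2 fold change 0.14 ± 0.16, adjusted p = 0.558). Reads of *Fbl* are uncertain, since 690 bases of its sequence are 99.6% identical to sequence annotated in *Tulp4*, a gene with 17976 counts here. *Nop56*, a scaffold of the particle, was at 146, 181 and 207 CPM with vehicle and 126, 137 and 179.7 CPM with RGS, again with overlap (log2 fold change -0.27 ± 0.18, adjusted p = 0.259), and passed with limma voom (adjusted p = 0.0455). *Nop58*, the other scaffold, had a log2 fold change of -0.24. *Rrp9*, a protein of the U3 particle, which is needed to cut out the small subunit rRNA, stood at 52.7, 61.7 and 68.6 CPM with vehicle and 35.2, 53.7 and 35.6 CPM with RGS. RGS replicates 10 and 12 lay below all vehicle tumors while RGS replicate 11 lay above vehicle replicate 7. *Rrp9* fell by the test (log2 fold change -0.56 ± 0.20, adjusted p = 0.0385) although its groups overlapped. Its adjusted p was 0.116 and 0.131 without vehicle replicate 8 or 9 and 0.145 and 0.121 without RGS replicate 10 or 12, and 0.0745 with the gene length offset.

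The 4 core proteins of the box H/ACA particle, which converts uridine to pseudouridine, did not move together. *Dkc1* (chrX:75095854-75109777, plus strand) encodes dyskerin, the catalytic subunit. It stood at 49.7, 43.8 and 39.5 CPM in vehicle replicates 7, 8 and 9 and 24.7, 26.2 and 26.8 CPM in RGS replicates 10, 11 and 12. All RGS values were below all vehicle values, and *Dkc1* fell (log2 fold change -0.78 ± 0.19, adjusted p = 0.00407). *Gar1* (chr3:129824912-129831396, minus strand), which binds dyskerin directly, stood at 9.59, 9.69 and 6.75 CPM in vehicle replicates 7, 8 and 9 and 14.1, 12.6 and 20.1 CPM in RGS replicates 10, 11 and 12. It rose (log2 fold change 0.84 ± 0.30, adjusted p = 0.0357), with the highest value in RGS replicate 12. Without that tumor the adjusted p was 0.167, and without vehicle replicate 8 or 9 it was 0.0616 and 0.128. With library size only it was 0.0841. *Nhp2*, an RNA-binding subunit, was at 44.6, 66.4 and 83.3 CPM with vehicle and 54.02, 65.2 and 92.1 CPM with RGS and overlapped between groups (log2 fold change 0.12 ± 0.23, adjusted p = 0.720). *Nop10*, the smallest subunit, was at 10.6, 13.6 and 18.7 CPM with vehicle and 11.5, 12.9 and 21.5 CPM with RGS (log2 fold change 0.10 ± 0.30, adjusted p = 0.836). In both groups *Nhp2* and *Nop10* were lowest in the same tumor and highest in the same tumor, replicates 7 and 9 with vehicle and 10 and 12 with RGS.

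The 13 factors of the small subunit held 3 decreases and 3 increases (23.1% each, against 16.5% and 16.3% of all genes), with a median of -0.30. *Utp4* (chr8:106893636-106923088, plus strand), a subunit of the UTP-A complex that joins the nascent precursor first, stood at 99.4, 92.5 and 87.9 CPM in vehicle replicates 7, 8 and 9 and 143, 143 and 161 CPM in RGS replicates 10, 11 and 12. The lowest RGS value was well above the highest vehicle value, and *Utp4* rose 1.599-fold (log2 fold change 0.68 ± 0.15, adjusted p = 0.00204). *Noc4l* (chr5:110648418-110653417, minus strand), the partner of *Nop14* in the small subunit processome, was at 32.5, 26.9 and 18.8 CPM in vehicle replicates 7, 8 and 9 and 38.3, 42.9 and 53.8 CPM in RGS replicates 10, 11 and 12. *Noc4l* rose (log2 fold change 0.78 ± 0.22, adjusted p = 0.0108), with adjusted p of 0.0544 without vehicle replicate 9 and 0.0699 without RGS replicate 12. *Nop14* itself was at 82.4 ± 10.6 CPM with vehicle against 68.6 ± 11.9 CPM with RGS and did not pass (log2 fold change -0.27 ± 0.18, adjusted p = 0.266). *Bysl*, which stays on the pre-40S particle until late, was at 25.9, 22.3 and 26.7 CPM with vehicle and 31.8, 32.1 and 48.6 CPM with RGS. *Bysl* rose (log2 fold change 0.59 ± 0.22, adjusted p = 0.0440), and RGS replicate 12 stood apart, with adjusted p of 0.281 without it. The values without vehicle replicate 8 or 9 were 0.163 and 0.0570, and those with upper-quartile factors and with library size only were 0.0581 and 0.128. Its exons share 361 bases with *Ccnd3* on the opposite strand, which had 9709 counts in all against 4045 for *Bysl*.

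*Tsr1* (chr11:74898071-74909342, plus strand), a GTPase-like protein that holds the pre-40S subunit in an immature shape, fell the most of the small subunit factors. It stood at 38.5, 31.3 and 23.3 CPM in vehicle replicates 7, 8 and 9 and 17.7, 10.9 and 16.9 CPM in RGS replicates 10, 11 and 12, and the groups did not overlap (log2 fold change -1.03 ± 0.25, adjusted p = 0.00420). *Tsr1* shares 1240 exon bases with *Srr* on the opposite strand (2263 counts in all against 3562), and without knowledge of the strand setting reads there cannot be assigned with certainty. *Utp18*, a UTP-B subunit, was at 74.1 ± 11.6 CPM with vehicle against 52.7 ± 5.22 CPM with RGS and fell (log2 fold change -0.49 ± 0.18, adjusted p = 0.0401). *Wdr43*, a UTP-A subunit, was at 86.1 ± 9.47 CPM with vehicle against 61.3 ± 4.78 CPM with RGS and fell (log2 fold change -0.49 ± 0.17, adjusted p = 0.0291). Neither call held in every leave-one-out fit. Without vehicle replicate 8 or 9 and RGS replicate 10 or 11 the adjusted p of *Utp18* was 0.171, 0.172, 0.127 and 0.116. That of *Wdr43* was 0.164, 0.0811 and 0.0791 without vehicle replicate 8 and RGS replicate 10 or 12. With the gene length offset the values were 0.0747 for *Utp18* and 0.0526 for *Wdr43*. *Wdr75*, another UTP-A subunit, was lower in every RGS tumor, at 66.05 ± 5.53 CPM with vehicle against 50.01 ± 2.27 CPM with RGS, but did not pass (log2 fold change -0.40 ± 0.17, adjusted p = 0.0727), and passed with upper-quartile factors (adjusted p = 0.0477), library size only (0.0225) and limma voom (0.0278), and without vehicle replicate 7 (0.0377). *Utp20*, *Ddx10*, *Nob1*, which cuts the mature end of the small subunit rRNA, and *Ltv1* had log2 fold changes of -0.36, -0.33, -0.30 and -0.24, and *Rrp12*, an export factor, 0.33, with overlapping groups for all 5.

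Of the 11 large subunit factors 2 fell and 0 rose by edgeR (18.2% and 0%, against 16.5% and 16.3% of all genes), with a median of -0.23. *Bop1* was higher at an unadjusted p under 0.05 and passed with DESeq2, the gene length offset and a minimum median count of 20. *Wdr12* (chr1:60069785-60098645, minus strand) belongs with *Bop1* and *Pes1* to the PeBoW complex, which is needed to mature the large subunit rRNA. It stood at 50.8, 50.03 and 61.1 CPM in vehicle replicates 7, 8 and 9 and 25.7, 22.9 and 26.5 CPM in RGS replicates 10, 11 and 12. No RGS tumor was above 26.5 CPM, and *Wdr12* fell to 0.464 of the vehicle level (log2 fold change -1.11 ± 0.19, adjusted p = 0.000162). *Bop1* was at 70.1, 85.8 and 65.9 CPM with vehicle and 92.2, 112 and 93.1 CPM with RGS. All RGS values lay above all vehicle values, but *Bop1* did not pass (log2 fold change 0.42 ± 0.17, adjusted p = 0.0602). *Pes1* was at 111, 113 and 99.1 CPM with vehicle and 119, 128 and 119 CPM with RGS, also without overlap and also not past the test (log2 fold change 0.17 ± 0.15, adjusted p = 0.408). *Noc2l*, a pre-60S factor, was at 195, 157 and 146 CPM with vehicle and 145, 148 and 134 CPM with RGS, and RGS replicate 11 lay just above the lowest vehicle tumor (log2 fold change -0.23 ± 0.16, adjusted p = 0.293). *Noc3l*, its partner, was at 32.9 ± 1.93 CPM with vehicle against 22.3 ± 4.48 CPM with RGS and had an adjusted p of 0.0538, or 0.0435 without RGS replicate 10, and passed under 5 other alternatives, with adjusted p from 0.0206 (limma voom) to 0.0496 (edgeR's own filter).

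*Brix1*, which helps to fold the pre-60S particle, was at 109 ± 21.2 CPM with vehicle against 75.6 ± 2.86 CPM with RGS and fell (log2 fold change -0.53 ± 0.17, adjusted p = 0.0236). Leaving out a tumor ended this call for vehicle replicate 8 or 9 (adjusted p = 0.111 and 0.131) and for RGS replicate 10, 11 or 12 (0.0835, 0.0535 and 0.0609). *Nop2*, a methyltransferase of the large subunit rRNA, was at 89.8 ± 6.22 CPM with vehicle against 70.4 ± 2.82 CPM with RGS, with no overlap and no call (log2 fold change -0.35 ± 0.16, adjusted p = 0.0956), and passed with library size only (adjusted p = 0.0279). *Nop16* was at 71.6 ± 11.8 CPM with vehicle against 53.8 ± 5.296 CPM with RGS (log2 fold change -0.41 ± 0.18, adjusted p = 0.0839), and passed without vehicle replicate 7 (adjusted p = 0.0140), with library size only (0.0241) and with limma voom (0.00904). *Rrs1*, which brings the small rRNA particle with RPL5 and RPL11 into the subunit, had a log2 fold change of -0.16. The helicase *Ddx18* and *Ebna1bp2* had values of -0.15 and 0.27, and none of these 3 passed.

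Genes whose products sit in 1 complex were set against each other within each tumor, which cancels the library scale. The pairs were picked with the values known, so the ratios are a description without a test. The log2 ratio of *Bop1* to *Wdr12* was 0.45 ± 0.33 with vehicle and 1.98 ± 0.27 with RGS, a difference of 1.53, and the ratio of *Pes1* to *Wdr12* differed by 1.28. The ratio of *Dkc1* to *Gar1* was 2.37 ± 0.19 with vehicle and 0.76 ± 0.32 with RGS, a difference of -1.61, the largest of the 15 ratios. In the UTP-A complex, *Utp4* to *Wdr43* was 0.12 ± 0.10 with vehicle and 1.28 ± 0.19 with RGS, and *Utp4* to *Wdr75* differed by 1.08. The groups did not overlap in these ratios. Within box H/ACA, *Dkc1* to *Nhp2* differed by -0.90 and *Nop10* to *Gar1* by -0.76 without overlap, and *Dkc1* to *Nop10* by -0.85 and *Nhp2* to *Gar1* by -0.70 with overlap. *Pes1* to *Bop1* differed by -0.25, *Fbl* to *Nop56* by 0.40 and *Fbl* to *Nop58* by 0.39, all without overlap. The 3 ratios nearest to no difference were *Wdr43* to *Wdr75* (-0.09), *Nhp2* to *Nop10* (0.05) and *Nop56* to *Nop58* (-0.01), which overlapped.

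**Figure D3:**
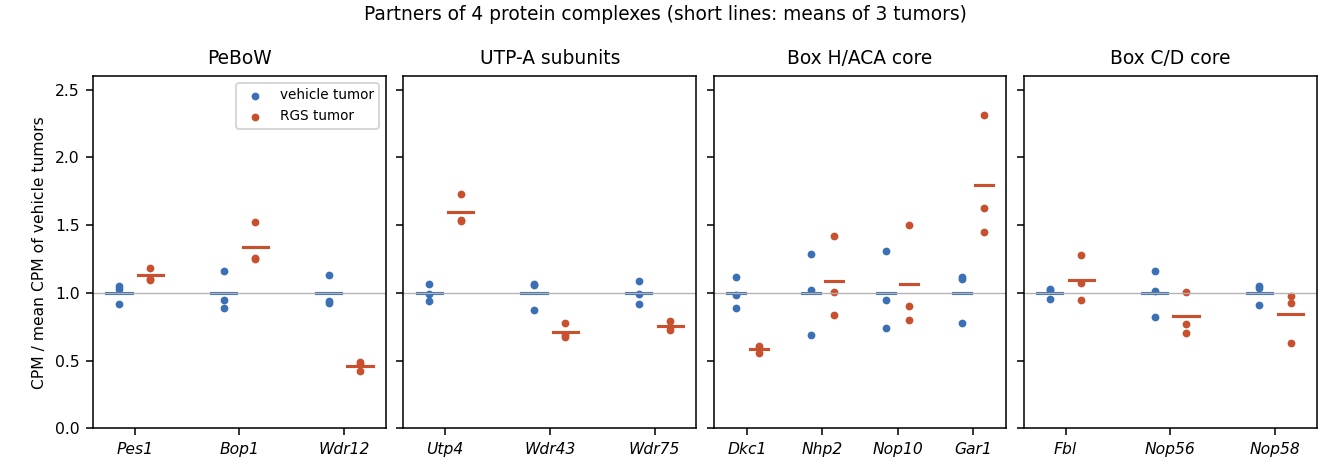
Points give the CPM of each gene in 1 tumor divided by the mean of the 3 vehicle tumors, for the partners of 4 complexes, with vehicle in blue and RGS in red, and short lines give group means. *Wdr12*, *Dkc1*, *Wdr43*, *Wdr75* and *Nop58* lie below 1 in all RGS tumors, while *Bop1*, *Pes1*, *Utp4* and *Gar1* lie above 1.

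The summed share of all counts held by the 44 genes was 0.559, 0.552 and 0.566% of counts with vehicle and 0.393, 0.423 and 0.427% with RGS. The mean was 0.559% ± 0.00670 with vehicle and 0.414% ± 0.0183 with RGS (SD, n = 3), and the groups did not overlap. No p is given for this sum, since the genes were chosen with results known. *Npm1* and *Ncl* carried much of it: without them the share was 0.352% ± 0.0107 with vehicle and 0.286% ± 0.0115 with RGS. The abundant nucleolar proteins held 0.296% ± 0.0119 with vehicle and 0.192% ± 0.00828 with RGS. The share of the box C/D proteins was 0.0502% ± 0.00428 with vehicle and 0.0397% ± 0.00540 with RGS, that of the small subunit factors 0.0689% ± 0.00630 with vehicle and 0.0594% ± 0.00282 with RGS and that of the large subunit factors 0.0977% ± 0.00350 with vehicle and 0.0795% ± 0.00240 with RGS, with no overlap in any of the 3. Box H/ACA proteins held 0.0138% ± 0.00142 with vehicle and 0.0121% ± 0.00240 with RGS and RNA polymerase I genes 0.0326% ± 0.000688 with vehicle and 0.0316% ± 0.00162 with RGS, and in both the groups overlapped. These shares are of raw totals, without TMM factors. On the TMM scale the groups overlapped for box C/D proteins and small subunit factors as well. On that scale RNA polymerase I genes summed higher in every RGS tumor than in any vehicle tumor. As mitochondrial transcripts took a larger share with RGS, the share was also taken of all other counts, and was 0.573% ± 0.00997 with vehicle and 0.446% ± 0.0257 with RGS.

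**Figure D4:**
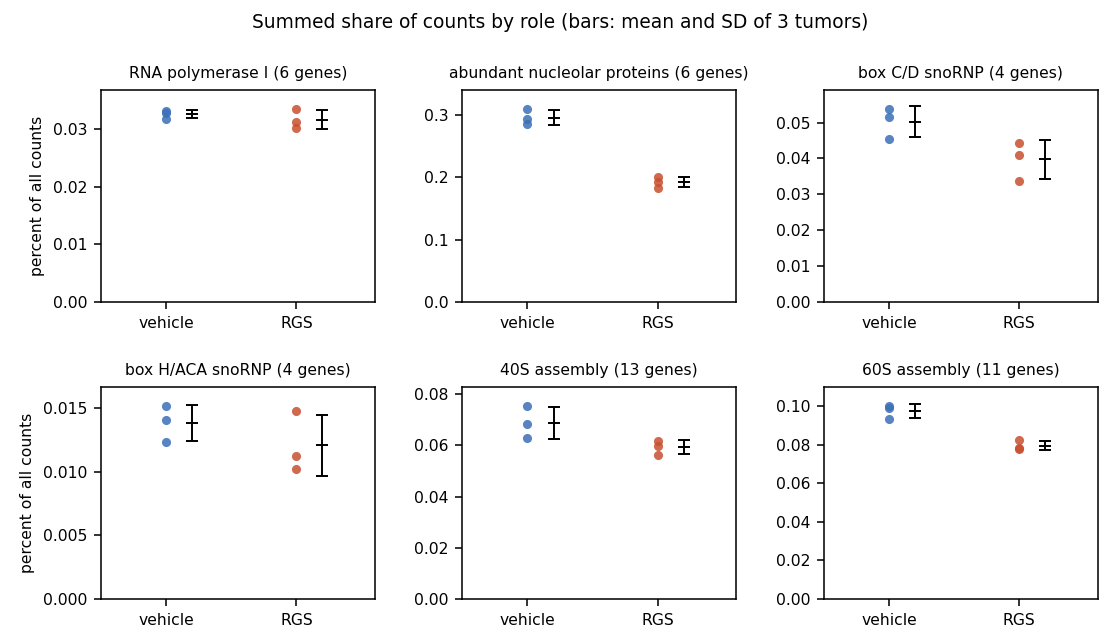
Each panel gives the percent of all counts held by the genes of 1 role in each tumor, from 0, with the mean and SD of 3 tumors beside the points. In these shares of raw totals the RGS tumors lie below the vehicle tumors for 4 roles and overlap with them for RNA polymerase I and box H/ACA. With TMM factors, which are not used here, the box C/D and small subunit groups also overlap and RNA polymerase I is higher in every RGS tumor.

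Levels between genes were compared only per length, as TPM, in which counts are divided by gene length and scaled to a fixed sum. *Npm1* was first in both groups, at 1691 ± 172 TPM with vehicle and 903 ± 46.6 TPM with RGS. *Nhp2*, *Mybbp1a*, *Noc2l* and *Ncl* made up the next 4 in both groups, in changing order. *Gnl3* went from rank 12 of 44 with vehicle (112 ± 12.1 TPM with vehicle and 37.1 ± 4.16 TPM with RGS) to rank 29. *Utp4* went from rank 16 to rank 6, at 89.3 ± 15.3 TPM with vehicle and 124 ± 4.35 TPM with RGS, and *Noc4l* from rank 34 to 22. *Wdr12* was the lowest of the 44 with RGS (rank 40 with vehicle) and *Polr1a* the lowest with vehicle (rank 39 with RGS). Their annotated lengths, 11955 and 11871 bases, were the longest of the members, whose median was 3575 bases. A long annotated length lowers TPM, so ranks between genes depend on the annotation, and the length of the expressed transcripts was not measured. Neighbors in this order were often within their SDs of each other, as were *Noc4l* at 33.7 ± 12.3 TPM with vehicle and 49.6 ± 4.98 TPM with RGS and *Dkc1* at 35.7 ± 7.999 TPM with vehicle and 18.1 ± 0.685 TPM with RGS, ranks 34 and 33 with vehicle.

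Other ribosome biogenesis genes were taken from a list of 125, of which 124 were tested. In this list 34 fell and 7 rose (27.4% and 5.65%, against 16.5% and 16.3% of all genes), with a median of -0.21. By step, 3 of 10 other polymerase I genes fell and 1 rose, 11 of 43 small subunit factors fell and 2 rose, 15 of 50 large subunit factors fell and 4 rose, 3 of 10 snoRNP assembly factors fell and 2 of 11 exosome subunits fell. The count of increases was 4 without vehicle replicate 8, vehicle replicate 9 or RGS replicate 11 (1776, 1995 and 2004 of all genes, against 2503 with all tumors). The count of decreases was 22 without vehicle replicate 8 (1717 of all genes, against 2533 with all tumors). The largest decreases past the test were those of *Znhit3*, a box C/D assembly factor (log2 fold change -1.69 ± 0.34, adjusted p = 0.00078), and *Npm3*, a relative of nucleophosmin (log2 fold change -1.69 ± 0.23, adjusted p = 1.41e-05). *Znhit3* was at 12.9, 25.6 and 42.6 CPM with vehicle and 8.52, 9.27 and 7.28 CPM with RGS, with a wide spread among vehicle tumors. *Taf1b*, a subunit of the polymerase I promoter factor, was at 25.9, 30.4 and 31.2 CPM with vehicle and 13.9, 6.78 and 12.6 CPM with RGS (log2 fold change -1.38 ± 0.27, adjusted p = 0.000567). *Dimt1*, a small subunit rRNA methyltransferase, and *Rcl1*, of the small subunit processome, had log2 fold changes of -1.35 and -1.33 (adjusted p = 0.000196 and 0.000407).

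The largest increases past the test in this list were those of *Ddx54*, a nucleolar helicase, at 86.5, 56.7 and 42.9 CPM with vehicle and 139, 137 and 136 CPM with RGS (log2 fold change 1.15 ± 0.21, adjusted p = 0.000292), and *Gnl2*, a GTPase of pre-60S export, at 101, 103 and 98.7 CPM with vehicle and 170.0, 193 and 188 CPM with RGS (log2 fold change 0.87 ± 0.15, adjusted p = 0.000199). *Gnl2* and *Gnl3*, which are relatives, thus lay on opposite sides: all 3 RGS tumors were above the vehicle range for *Gnl2* and below it for *Gnl3*. *Utp3* and *Rrp1* rose by 0.68 and 0.67 on the log2 scale (adjusted p = 0.00541 and 0.00242). *Cd3eap*, a polymerase I subunit, was at 23.1, 26.3 and 22.7 CPM with vehicle and 32.7, 48.2 and 30.6 CPM with RGS and rose (log2 fold change 0.63 ± 0.22, adjusted p = 0.0331), but not without vehicle replicate 8 or 9 or RGS replicate 11 (adjusted p = 0.0555, 0.0806 and 0.232), with library size only (0.103) or with thinned counts (0.0721). Cytosolic ribosomal protein genes are given only for comparison: 61 of 80 fell, with a median of -0.98. Of 75 tested mitochondrial ribosomal protein genes 18 fell and 2 rose, with a median of -0.16. All 10 cell division markers had negative values and 8 fell, with a median of -1.25. In the order given, decreases were 76.25%, 24.0% and 80.0% of these lists, against 16.5% of all genes. Increases were 0%, 2.67% and 0%, against 16.3% of all genes. The differences between these lists were not tested.

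**Figure D5:**
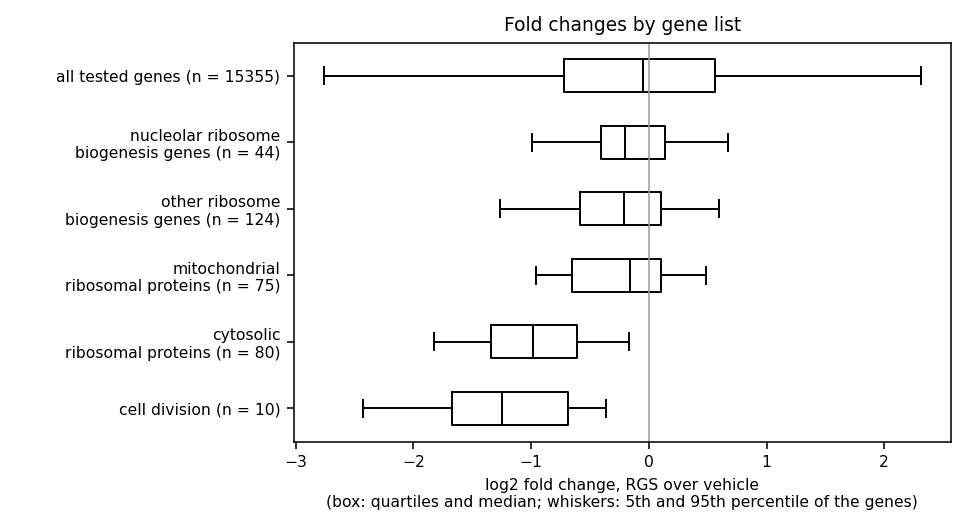
Boxes give the quartiles and median of the log2 fold change of RGS over vehicle over the genes of each list, and whiskers the percentiles 5 and 95. The nucleolar genes (n = 44, median -0.20) lie close to the other ribosome biogenesis genes (n = 124, median -0.21) and above cytosolic ribosomal protein genes (n = 80, median -0.98).

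Regulators linked to the nucleolus were read in the same fit. *Myc*, which drives ribosome biogenesis genes, was at 345, 310.2 and 310.3 CPM with vehicle and 127, 151 and 156 CPM with RGS and fell (log2 fold change -1.15 ± 0.15, adjusted p = 1.27e-05). *Rpl5* and *Rpl11*, ribosomal proteins that bind MDM2 when assembly is disturbed, were at 3369.9 ± 1374 CPM with vehicle against 853 ± 57.9 CPM with RGS and at 483 ± 132 CPM with vehicle against 357 ± 81.7 CPM with RGS. *Rpl5* fell (log2 fold change -1.98 ± 0.23, adjusted p = 2.43e-06), and *Rpl11* did not pass (log2 fold change -0.43 ± 0.20, adjusted p = 0.103) but did without vehicle replicate 7 or RGS replicate 12 (adjusted p = 0.00191 and 0.0394), with library size only (0.0263), with no low-count filter (0.0394) and with limma voom (0.00327). *Mdm2*, the ubiquitin ligase of p53, was at 443, 510.5 and 516 CPM with vehicle and 223, 252 and 201 CPM with RGS and fell (log2 fold change -1.12 ± 0.15, adjusted p = 1.88e-05). *Trp53*, which encodes p53, was at 127, 108 and 100.4 CPM with vehicle and 158, 153 and 166 CPM with RGS and rose (log2 fold change 0.51 ± 0.15, adjusted p = 0.0156), with adjusted p of 0.0705, 0.0662 and 0.0692 without vehicle replicate 8 or 9 or RGS replicate 12 and 0.0902 with library size only. *Cdkn1a*, the cell cycle inhibitor induced by p53, had 277, 275 and 253 CPM with vehicle and 274, 291 and 308 CPM with RGS, with overlap (log2 fold change 0.12 ± 0.14, adjusted p = 0.577).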

How the data were processed

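RNA of 6 tumors, 3 per group, was measured by paired-end sequencing with reads of 150 bases. The authors deposited 1 table of unnormalized counts for all tumors, with gene positions and lengths. The submitters' processing notes name cutadapt 1.18, FastQC 0.11.7, STAR 2.7.1a, featureCounts 1.6.4 and build mm10. Whether strand was used and how multi-mapping reads were handled is not given in the sources used here. Of the 40166 gene identifiers 38971 are in GENCODE M21, all at the same position, and 42 of 44 members are among them.

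From the deposited counts, genes with a median count of at least 5 in 1 or more groups were kept (15355) and RGS was compared with vehicle in R 4.3.3 by the quasi-likelihood test of edgeR 4.0.16 with TMM factors (0.920 to 1.08) and Benjamini-Hochberg adjustment over all tested genes at a threshold of 0.05. The study's methods name DESeq2, which was an alternative here (version 1.42.0). Standard errors are absolute log2 fold changes over the square root of its F statistic. Errors printed after ± are SDs of 3 tumors for CPM, TPM, shares and ratios, and standard errors for fold changes. CPM refers to the TMM-scaled library and TPM to counts per gene length. The fit was tested on simulated data. A single value compared over 3 against 3 tumors cannot reach an exact two-sided p under 0.1.

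The members and lists were chosen with earlier results of these data known, and the lists were written by hand. Values in every tumor were given, in each role, to the members with the largest decrease, the largest increase and the highest count, to members that rose past the threshold and to any called member with overlapping groups. The 5 largest changes per direction past the threshold among the other biogenesis genes (mean of at least 5 CPM) and 6 related genes followed. Of these, *Npm3*, *Dimt1*, *Rcl1*, *Utp3* and *Rrp1* were given without tumor values, and *Rpl5* and *Rpl11* with means and SDs in their place. Beyond this rule *Ncl*, *Pes1* and *Nop10* had their tumor values printed after these were seen. Near-identical copies were sequences of at least 90% identity over at least 40% of a transcript. Alternatives were RLE and upper-quartile factors, library size only, 3 other filters, robust dispersions, DESeq2, limma 3.58.1 voom with quality weights, thinned counts, removal of mitochondrial or ribosomal protein genes, an added fold threshold and each tumor left out. A gene length offset was added after the data were seen.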

Additional observations from a re-analysis of the deposited data

How the results depend on the processing

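None of the 14 called members changed direction under any alternative. Of the 14 called genes, 6 passed under the 19 alternatives other than an added fold threshold and 8 missed the threshold under 1 or more, while of the 30 others 8 passed under 1 or more and 22 under none. Library size only moved the median of all genes by -0.14 (log2). It raised the share of decreases among all calls from 50.3% to 62.8%, with 3152 lower and 1870 higher. Of the members 14 were lower and 2 higher, with a median of -0.35, and of the other biogenesis genes 48 were lower and 4 higher. Limma voom called more genes throughout, with 14 members lower and 6 higher, 49 other biogenesis genes lower and 13 higher, and 3408 of all 15355 genes lower and 3407 higher. The gene length offset, chosen after seeing the data, moved the median of all genes by 0.11. It put the share of decreases at 42.5%, with 2319 of all genes lower and 3139 higher. Of the other biogenesis genes 30 were lower and 14 higher, and of the members 6 were lower and 7 higher. The cause of these shifts was not tested. An added fold threshold of 1 on the log2 scale, which is stricter by construction, left 3 members lower (*Gnl3*, *Wdr12* and *Tsr1*) and 0 higher, 9 and 1 of the other biogenesis genes, and 1450 and 1168 of all genes. DESeq2 gave 9 members lower and 7 higher, and 2642 of all genes lower and 2767 higher. Leaving out 1 tumor gave 5 to 12 members lower and 1 to 6 higher, a median of -0.25 to -0.13, 22 to 40 and 4 to 9 of the other biogenesis genes, and 1717 to 2551 and 1776 to 2698 of all genes. The summed share of the members differed by -0.145 percentage points in the report, by -0.128 with mitochondrial genes out of the total, by -0.0662 without *Ncl* and *Npm1*, and by -0.151 to -0.134 with 1 tumor left out. No paired analysis was possible because the vehicle and RGS tumors share no replicate numbers. Depth differed between the groups, and with 145 to 39312 counts per gene and tumor no member was near the floor of 3 counts. No outlier test was made within groups of 3, and with 1 contrast no effects could be compared between groups.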

Other observations

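Vehicle replicate 7 was the highest of the 3 vehicle tumors for 21 of the 44 nucleolar genes and the lowest for 15, and vehicle replicate 9 was the highest for 17 and the lowest for 23, so that replicate 8 was the highest for 6. *Ncl*, *Ddx21*, *Polr1a*, *Noc4l* and *Rrp12* were among those highest in replicate 7, and *Npm1*, *Gnl3*, *Nhp2*, *Nop10* and *Brix1* among those highest in replicate 9. The median range over the vehicle tumors was 0.38 log2 units and over the RGS tumors 0.34. Across the 44 genes the rank correlation of annotated gene length with the log2 ratio of vehicle replicate 7 to 9 was 0.29, and across 14390 tested genes 0.35. These points share their libraries and are a description without a p. The rank correlation of length with the log2 fold change over the 44 genes was -0.04.

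Introns of *Dkc1*, *Nop56*, *Nop58*, *Tsr1* and *Wdr43* hold 9 small nucleolar RNAs that have rows of their own in the table. These rows had between 0 and 34 counts in a tumor. The 5 host genes had 3562 to 22419 counts over the 6 tumors. Processed copies of *Npm1* (6 rows) held 642 counts against 158996 for the gene itself, 0.404%, so few reads were assigned to them.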
